A study of Mus musculus with 3 samples.

Results

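The ephrin, Slit and netrin guidance genes are 36 mouse genes that encode 3 ligand and receptor systems of axon guidance: 8 ephrins and 14 Eph receptors, 3 Slits and 4 Robo receptors, and 2 netrins with 5 netrin receptors. They were taken from a list of names that was chosen with earlier results of these data known. No measured value entered the rule, and the genes make up 36 of the 21631 protein-coding genes on the chromosomes covered by the files. The 13 ligand genes are Efna1, Efna2, Efna3, Efna4, Efna5, Efnb1, Efnb2, Efnb3, Slit1, Slit2, Slit3, Ntn1 and Ntn4. The 23 receptor genes are Epha1 to Epha8, Epha10, Ephb1, Ephb2, Ephb3, Ephb4, Ephb6, Robo1, Robo2, Robo3, Robo4, Dcc, Unc5a, Unc5b, Unc5c and Unc5d.

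Chromatin accessibility in the whole brain of C57BL6 mice was profiled by ATAC-seq of single nuclei, in which the transposase Tn5 places adapters in open chromatin and combinations of barcodes mark the nuclei. The groups are the preparation versions sciATACv3, sciATACv2 and sciATACv1 (v3, v2 and v1), with 1 library each. In all 3, nuclei were tagmented in 96 wells, pooled and spread over a chip of 5184 nanowells for the indexed PCR. The labels do not state how the versions differ, nor how many animals were used or their age and sex. The deposited lists hold peak positions without scores, pooled over all nuclei, so a peak carries no cell type, and accessibility in few nuclei cannot be told apart from weak accessibility in many. With 1 library per version there is no replicate spread and no test between versions, and the intervals given cover counting error only. The v3 list held 512023 peaks with a median width of 726 bp, the v2 list 850991 and the v1 list 622754, both with a median of 500 bp. Sequencing depth is unknown.

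Ephrins are bound to the cell surface, the A class by a lipid anchor and the B class by a transmembrane segment, and Eph receptors are receptor tyrosine kinases that respond to them on contact between cells, mostly with repulsion of the growth cone. Slits are large secreted repellents that act through Robo receptors and keep axons from the midline, or from crossing it again. Netrin-1 is a secreted cue that attracts axons through Dcc and repels them where Unc5 receptors take part.

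The stretches 250 bases upstream of 7 transcription starts are shown first, because Robo4 and Ephb1 had start peaks of extreme width, Robo3 is the neighbour of Robo4, Epha8 is richest in CpG dinucleotides and Robo2 has several starts. They were read from RefSeq promoters of GRCm38.p6, the assembly that mm10 names, and run 5′ to 3′ on the strand of the gene, with CpG dinucleotides in capitals. Robo4 and Robo3 are neighbours on chromosome 9 (chr9:37401722-37401971, plus strand, and chr9:37433176-37433425, minus strand). Ephb1 (chr9:102354694-102354943, minus strand) had the widest start peak of v3, and Epha8 (chr4:136956817-136957066, minus strand) the most CpG dinucleotides. The 3 listed starts of Robo2 are given from the outermost inwards (chr16:75447294-75447543, chr16:75092771-75093020 and chr16:74411826-74412075, all minus strand).
Robo4: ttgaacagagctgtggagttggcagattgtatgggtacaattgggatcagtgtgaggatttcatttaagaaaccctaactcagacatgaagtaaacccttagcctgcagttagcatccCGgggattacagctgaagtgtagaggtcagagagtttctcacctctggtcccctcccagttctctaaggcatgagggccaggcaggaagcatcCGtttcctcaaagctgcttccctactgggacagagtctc
Robo3: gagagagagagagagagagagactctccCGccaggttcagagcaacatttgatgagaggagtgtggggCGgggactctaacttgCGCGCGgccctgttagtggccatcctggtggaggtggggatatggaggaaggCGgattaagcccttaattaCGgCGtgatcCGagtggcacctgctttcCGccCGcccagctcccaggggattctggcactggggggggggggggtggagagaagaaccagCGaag
Ephb1: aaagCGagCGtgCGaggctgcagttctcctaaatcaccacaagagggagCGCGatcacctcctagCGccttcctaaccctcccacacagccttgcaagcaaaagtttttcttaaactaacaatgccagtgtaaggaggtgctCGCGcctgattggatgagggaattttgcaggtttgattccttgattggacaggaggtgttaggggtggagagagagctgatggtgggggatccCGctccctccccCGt
Epha8: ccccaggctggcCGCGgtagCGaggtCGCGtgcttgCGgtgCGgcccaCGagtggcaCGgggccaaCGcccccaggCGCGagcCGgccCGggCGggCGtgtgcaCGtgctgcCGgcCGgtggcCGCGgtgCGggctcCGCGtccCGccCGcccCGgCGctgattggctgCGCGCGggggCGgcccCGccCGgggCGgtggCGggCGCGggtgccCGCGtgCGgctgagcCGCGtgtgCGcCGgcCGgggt
Robo2, outer start: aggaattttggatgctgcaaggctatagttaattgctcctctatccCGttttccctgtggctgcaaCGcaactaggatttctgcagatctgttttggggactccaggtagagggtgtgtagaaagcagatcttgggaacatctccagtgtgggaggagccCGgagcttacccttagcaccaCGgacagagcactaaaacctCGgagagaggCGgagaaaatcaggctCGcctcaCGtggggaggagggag
Robo2, middle start: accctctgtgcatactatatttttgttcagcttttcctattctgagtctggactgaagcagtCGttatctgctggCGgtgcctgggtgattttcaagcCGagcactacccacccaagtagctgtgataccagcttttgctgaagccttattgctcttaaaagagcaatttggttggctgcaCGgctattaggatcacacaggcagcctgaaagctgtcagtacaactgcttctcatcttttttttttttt
Robo2, inner start: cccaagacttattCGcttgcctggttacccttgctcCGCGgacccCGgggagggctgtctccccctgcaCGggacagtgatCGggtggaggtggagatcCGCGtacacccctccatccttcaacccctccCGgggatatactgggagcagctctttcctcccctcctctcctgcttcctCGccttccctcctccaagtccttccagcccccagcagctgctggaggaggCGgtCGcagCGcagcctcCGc

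Every listed start of the guidance genes lay under a peak in every library. The promoter table lists 36 starts for 31 of the genes, and all 36 were covered in v3, v2 and v1. Over all genes with a listed start, 71.5% had a peak over a start in v3, 76.2% in v2 and 70.9% in v1. The 2 related gene lists described further below came close to the guidance genes. Of 27 guidance partners with a listed start, 27 had such a peak in v3, 26 in v2 and 26 in v1. Of 26 semaphorin-system genes, 25 had one in each library. By the looser measure of a peak within 1 kb of either end of the gene span, 35 of 36 genes had one in each library, beside 80.6% of protein-coding genes in v3, 84.8% in v2 and 81.0% in v1. The exception was Epha6 in all 3 libraries. Its span runs from 59641433 to 60610911 on chromosome 16, but its listed start at 60605531 lies inside the span, and that start was under a peak of 3574 bp in v3, 2048 bp in v2 and 2069 bp in v1.

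Peaks over the guidance genes' starts had median widths of 1984 bp in v3, 1797 bp in v2 and 1802 bp in v1, against 1761.5, 1429 and 1362 bp over all listed starts under a peak. Ephb1, a receptor that turns retinal axons away from the optic midline, had a start peak of 4195 bp in v3, 2083 bp in v2 and 1351 bp in v1. The v3 peak of Ephb1 was the widest over any of these starts in that library. Ephb6, a receptor whose kinase domain is inactive, had start peaks of 3519 bp in v3, 3233 bp in v2 and 2610 bp in v1, and its start peak was the widest peak of the gene's window in every library.

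At the other end stood Robo4, the Robo receptor of endothelial cells, whose start peak had the minimum width of 500 bp in v3, v2 and v1. The upstream sequence of Robo4 shown above is nearly free of capitals: the 300 bases from 250 before to 50 after its start hold 2 CpG dinucleotides at 50.3% G and C. Robo3, the Robo receptor of commissural axons before they cross the midline, is the neighbouring gene; its window of 300 bases holds 17 CpG dinucleotides at 63.3% G and C. The start peak of Robo3 was 2808 bp wide in v3, 888 bp in v2 and 1825 bp in v1. Over all 36 starts of guidance genes the median was 21.5 CpG dinucleotides and 64.8% G and C, against 13 and 56.7% over all 21045 listed promoters. Every guidance start lay under a peak in all 3 libraries. Over the 14290 listed promoters of that kind the medians were 20 CpG dinucleotides and 61% G and C, close to the guidance genes in CpG number. Listed promoters under no peak in any library had a median of 2 CpG dinucleotides, the number found at Robo4.

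The richest window was that of Epha8, with 56 CpG dinucleotides at 84.3% G and C, followed by Slit3 with 41, Efna5 with 38 and Unc5a with 37. Width did not follow this order: the start peak of Epha8 was 2168 bp in v3, 1488 bp in v2 and 1462 bp in v1, narrower than that of Ephb6 in each library. The 3 starts of Robo2 held 9 CpG dinucleotides at the outer start, 5 at the middle and 17 at the inner one. The peak over the outer start was 751 bp in v3, 2078 bp in v2 and 1331 bp in v1. Over the middle start it was 1162, 1135 and 2167 bp in the same order of libraries, and over the inner start 2770, 1899 and 2383 bp. All 3 starts of Robo2 were thus open in these whole-brain lists, including the CpG-poor middle one.

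**Figure D1:**
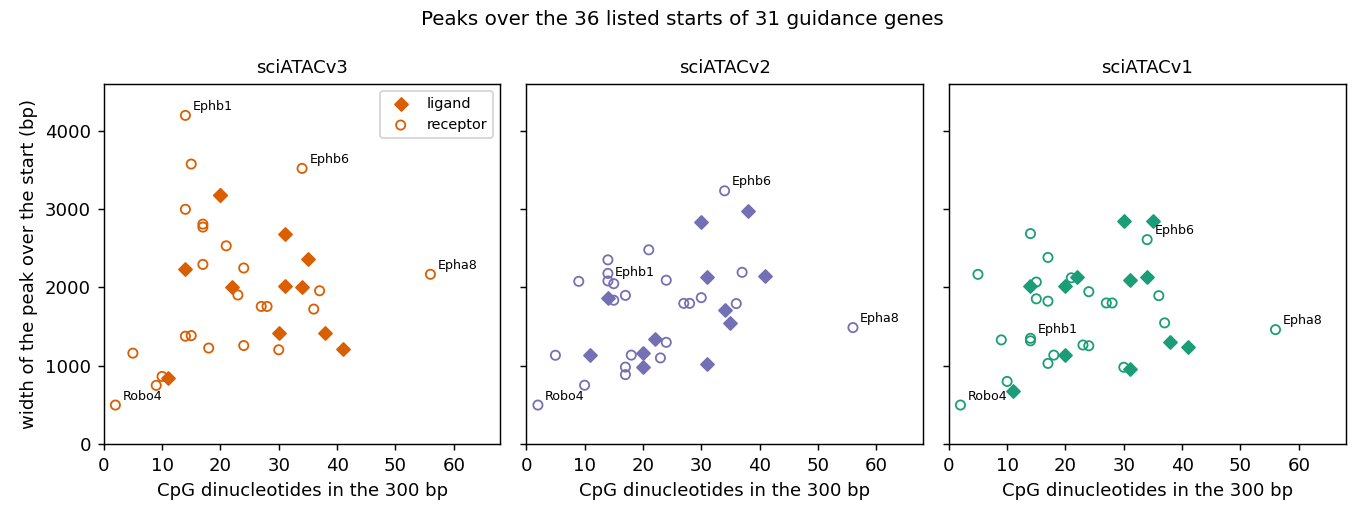
Width of the peak over each of the 36 listed starts (bp, vertical axis) against the number of CpG dinucleotides in the 300 bp around the start (horizontal axis), 1 panel per library, with filled diamonds for ligand genes and open circles for receptor genes. Robo4 sits at the lower left in every panel with 2 CpG dinucleotides and 500 bp, Epha8 lies farthest right with 56, and Ephb1 is the highest point in v3 with 4195 bp.

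Short motifs were looked up on both strands of the 250 upstream bases. The GC box GGGCGG, the core bound by SP1-type factors, was found in 25 of the 36 guidance promoters, or 69.4%, against 43.1% of all listed promoters. CCAAT was found in 36.1% of them against 35.6%, TATAAA in 5.56% against 11.7%, the E-box CACGTG in 5.56% against 6.70%, TGACG in 16.7% against 20.4% and CCGGAAG in 2.78% against 9.08%. GGGCGG contains a CpG dinucleotide, and the guidance promoters also hold more CpG dinucleotides than all promoters. All listed promoters include those under no peak, while the 36 guidance starts were all under one. The part of base composition and of open promoters in the difference was not tested. A match describes these letters and is not evidence of a bound factor.

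Over their whole windows, starts included, the guidance genes carried more peaks per length of window than protein-coding genes in general. A window is the span of the gene and 5 kb beyond either end. The genes' median was 34.5 peaks per 100 kb in v3, 56.0 in v2 and 48.0 in v1, against 26.6, 42.6 and 29.7 over all protein-coding genes. In v3, 28 of 36 genes lay above the median of all genes; Ephb4, Efna1, Efna2, Slit2, Robo3, Ntn1, Ntn4 and Dcc did not. In v2 and in v1, 31 of 36 lay above it. Ephb4 was the gene below it in all 3 libraries.

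Guidance genes are long, with a median span of 87.0 kb against 17.3 kb over all protein-coding genes, and long genes were denser in general. Among genes with a span of at least 100 kb, the 18 guidance genes had medians of 37.9 peaks per 100 kb in v3, 56.4 in v2 and 49.98 in v1, against 35.6, 54.8 and 42.2 over all 2427 such genes. Among shorter genes, the 18 guidance genes had 33.3, 54.5 and 43.9, against 25.7, 41.0 and 28.3 over all 19204. The gap to all genes of the same length class was thus narrower for the long guidance genes than for the short ones in each library. The long sets still differ in length, with median spans of 344.8 kb for guidance genes and 171.9 kb for all. Among genes with at least 500 peaks over the libraries, median spans were 587.1 and 516.2 kb. There the guidance genes had the lower medians, with 37.6, 56.6 and 49.7 peaks per 100 kb in v3, v2 and v1, against 41.9, 58.4 and 49.99. This cutoff uses peak number, which also enters the density, so shorter genes pass it only where they are dense. The part of that choice in the lower medians was not tested. Within the 36 genes the number of peaks followed window length, with Spearman coefficients across genes of 0.964 in v3, 0.976 in v2 and 0.948 in v1, while the density per 100 kb had coefficients of 0.100, 0.159 and 0.219 with it. These coefficients describe 36 genes read from the same lists and carry no test.

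**Figure D2:**
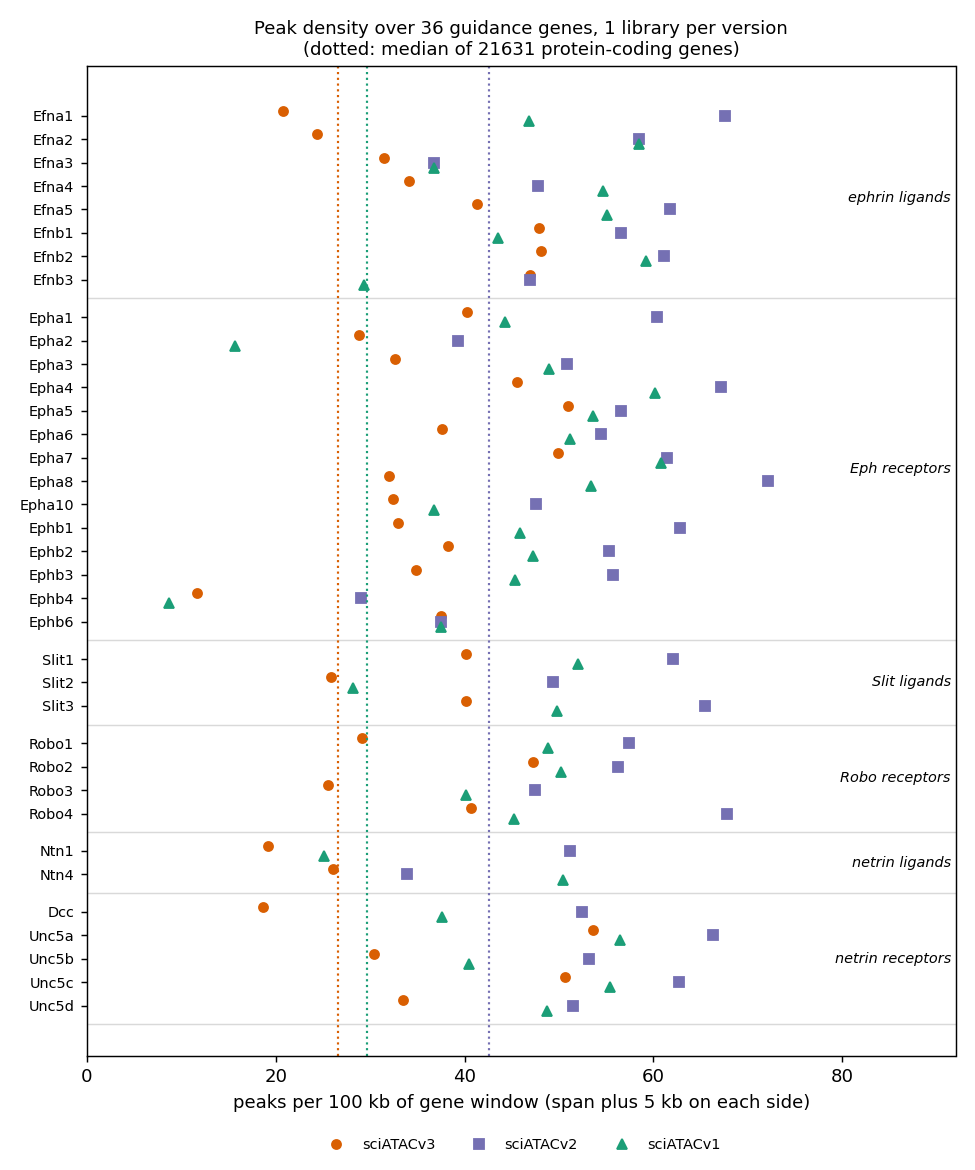
Peaks per 100 kb of gene window (horizontal axis) for the 36 guidance genes, grouped into ligands and receptors of each system, with a circle for v3, a square for v2 and a triangle for v1; the dotted lines are the medians of 21631 protein-coding genes. Most points lie right of the dotted line of their library, Ephb4 lies left of it in all 3, and Dcc and Ntn1 have the widest room between v3 and v2 among the long genes.

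Ligand genes were set beside receptor genes within each system. Ephrin genes had a median of 37.7 peaks per 100 kb in v3, 57.5 in v2 and 50.7 in v1, against 36.2, 55.6 and 46.6 for Eph receptor genes. Their median spans were 9.88 and 92.1 kb, so flanks weigh more in the ephrin windows. The part of length was not tested. Over all systems, ligand genes of at least 100 kb had medians of 33.1, 56.5 and 50.1, against 37.9, 56.4 and 49.6 for receptor genes. Shorter ligand genes had 34.2, 56.6 and 46.8, against 32.4, 53.2 and 40.5. The order of ephrins over Eph receptors turned round with flanks of 20 kb, where the difference was -1.20, -3.84 and -1.30 peaks per 100 kb in v3, v2 and v1. Slit genes had 40.1 in v3, 62.1 in v2 and 49.7 in v1, against 34.9, 56.8 and 47.0 for Robo genes. Pooled over their summed windows, Slits had 0.896 times the density of Robos in v3, 1.06 times in v2 and 0.877 times in v1, so the direction for Slits depends on whether genes or bases are weighted equally. With only peaks wider than 500 bp the difference of the medians in v1 was -0.56.

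By its medians, the netrin system ran the other way in every library. The 2 netrin genes had medians of 22.7 peaks per 100 kb in v3, 42.6 in v2 and 37.8 in v1, against 33.5, 53.2 and 48.7 for the 5 receptor genes. The differences were -10.8, -10.6 and -10.9, and the direction held pooled over windows, with ratios of 0.739, 0.820 and 0.784. It also held under each alternative run, although with equal numbers of peaks drawn from each library the difference in v2 was -1.35. A median over 2 ligand genes rests on both of them, and the netrins did not share 1 pattern across libraries. In v1, Ntn4 had 50.5 peaks per 100 kb, above the receptor median of 48.7, and Ntn1 had 25.1. In v3, the receptor gene Dcc had 18.7, below both Ntn1 with 19.2 and Ntn4 with 26.1.

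Of the ephrin ligands, Efna5, a lipid-anchored ephrin of retinal and cortical maps, spans 278 kb on chromosome 17 and had the most peaks, with 119 in v3, 178 in v2 and 159 in v1. Efnb2, a transmembrane ephrin of neurons and arterial endothelium, followed with 26, 33 and 32 peaks, or 48.1, 61.1 and 59.3 per 100 kb. Of the 26 merged regions in the window of Efnb2, 73.1% held a peak of all 3 libraries. Efna3, with 6 peaks in v3, 7 in v2 and 7 in v1, and Efna4, with 5, 7 and 8, tied for the fewest averaged over libraries.

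Efna1, Efna3 and Efna4 lie close to each other on chromosome 3, and their neighbours are close: the window of Efna1 also holds Dpm3 and Slc50a1, and that of Efna4 holds Adam15, a metalloprotease gene. The peaks of Efna1 numbered 4 in v3, 13 in v2 and 9 in v1, so its v3 count was the lowest of the 3 libraries, whereas Efna3 and Efna4 differed by at most 3 peaks between libraries. Of the peaks of Efna4, 2 in each library also touched Adam15. Of the 6 merged regions in each of the windows of Efna3 and Efna4, 83.3% were found in all 3 libraries, the highest share among the guidance genes. The other ephrin genes had between 5 and 13 peaks in every library. Efna1, Efna2, Efna3, Efna4 and Efnb3, like the receptor gene Ephb4, fell short of 30 peaks summed over the libraries and were left out of the comparison of shares.

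By class, the 5 ephrin-A genes had medians of 31.5 peaks per 100 kb in v3, 58.5 in v2 and 54.7 in v1. The 3 ephrin-B genes had 47.9 in v3, 56.6 in v2 and 43.6 in v1. The ephrin-B median was thus higher than the ephrin-A median in v3 and lower in v2 and v1. EphA receptor genes had 37.6, 56.6 and 51.1, and EphB receptor genes 34.9, 55.3 and 45.3. The EphA median was above the EphB median in all 3 libraries. Pooled over their summed windows, EphA had 40.3, 55.7 and 51.7 and EphB 33.6, 58.0 and 44.2, so the direction turned round in v2. Median spans were 147.9 kb for EphA and 24.4 kb for EphB, and the part of length was not tested.

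Among the Eph receptors, Epha6, the longest Eph receptor gene, had 368 peaks in v3, 533 in v2 and 501 in v1 over 969 kb. Ephb1, second by the mean over libraries, had 146 in v3, 278 in v2 and 203 in v1; Epha5 had more than Ephb1 in v3. Ephb4, the Eph receptor of venous endothelium, had the fewest, with 4 in v3, 10 in v2 and 3 in v1. Its density of 11.6 peaks per 100 kb in v3 exceeded that of 23.5% of protein-coding genes, that of 29.1 in v2 exceeded 31.1% and that of 8.72 in v1 exceeded 17.9%. One of the few Ephb4 peaks in each library lay over the start, with 2997 bp in v3, 2179 bp in v2 and 1319 bp in v1.

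Epha6 had fewer peaks towards its 3′ end in v3. With its span cut into 3 equal parts, the last part held 19.9% of the peak midpoints in v3, against 32.8% in v2 and 28.9% in v1. With 10 equal bins, the bin nearest the 3′ end had 18 peaks in v3, 48 in v2 and 34 in v1, while the fourth bin from the 5′ end had 59, 59 and 66. The third bin had 43, 63 and 61, so the v3 count lay below the others in part of the 5′ bins too. These counts are not scaled to the library totals. The median of this percentage over the 14 long guidance genes with known strand was 29.2% in v3, 32.6% in v2 and 32.2% in v1, against medians of 32.7, 34.2 and 33.7% over protein-coding genes of that length.

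Of the Slit genes, Slit3 had 240 peaks in v3, 391 in v2 and 297 in v1, and Slit2 had 87, 166 and 95. Slit1, with the fewest, had 64, 99 and 83. Slit2, a main midline repellent, was the sparse one by length, with 25.9 peaks per 100 kb in v3, 49.3 in v2 and 28.2 in v1, against 40.1, 62.1 and 52.1 for Slit1 and 40.2, 65.5 and 49.7 for Slit3. Of the 174 regions in the window of Slit2, 23.0% held a peak of all 3 libraries and 51 regions held a v2 peak alone. The window of Slit3 held the widest merged region found in all 3 libraries among the guidance genes, 7874 bp at chr11:35293167-35301040, 171.7 kb from the start and inside the gene.

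Among the Robo genes, Robo2 had 740 peaks in v3, 881 in v2 and 786 in v1 over 1555 kb, the most of the guidance genes in each library. Robo1 had 300 in v3, 591 in v2 and 503 in v1 over 1020 kb. Robo2 and Robo1, the main Slit receptors of brain axons, thus lay close to each other in density in v2 (56.3 for Robo2 and 57.4 for Robo1 per 100 kb) and in v1 (50.2 and 48.8), but not in v3 (47.3 and 29.1). Robo3, the lowest of the family by the mean over libraries, had 7 peaks in v3, 13 in v2 and 11 in v1. Robo4 had 9, 15 and 10, so that it was below Robo3 in v1; the windows of Robo3 and Robo4 overlap, and 1 peak of v3 in each window touched the span of the other gene.

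The peaks of Robo1 were also counted on either side of its start. The span of Robo1 begins 635.6 kb before its listed start, and in that upstream stretch there were 156 peaks in v3, 344 in v2 and 289 in v1. In share of the total peaks, v3 stood at 0.657 of v1 there (95% interval 0.537 to 0.8004). After the listed start there were 144, 244 and 212 peaks, with v3 at 0.826 of v1 (0.664 to 1.03); the intervals of both stretches overlap, and the difference between them was not tested. The longest stretch of Robo1 without a peak was 36.8 kb in v3, 8.15 kb in v2 and 9.62 kb in v1, and the v3 stretch lay before the listed start. The widest peaks of Robo1 in v3 and v2, 4263 bp and 3850 bp, lay at the far upstream end of the span, at chr16:72027010-72031272 in v3 and chr16:72027421-72031270 in v2.

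In Robo2, v3 stood at 1.16 of v1 in share between the 3′ end of the gene and its inner start (0.971 to 1.38), at 1.12 between the inner and middle starts (0.965 to 1.30), and at 1.199 from the middle start to the 5′ end (0.938 to 1.53). The v3 over v1 intervals of these 3 stretches of Robo2 overlap one another and each includes 1. Over the whole window of Robo2, v3 stood at 1.145 of v1 (1.03 to 1.27), an interval above 1. Against v2, v3 stood at 1.49 (1.26 to 1.77), 1.38 (1.19 to 1.59) and 1.29 (1.02 to 1.62) in the same order of stretches, each interval above 1.

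**Figure D3:**
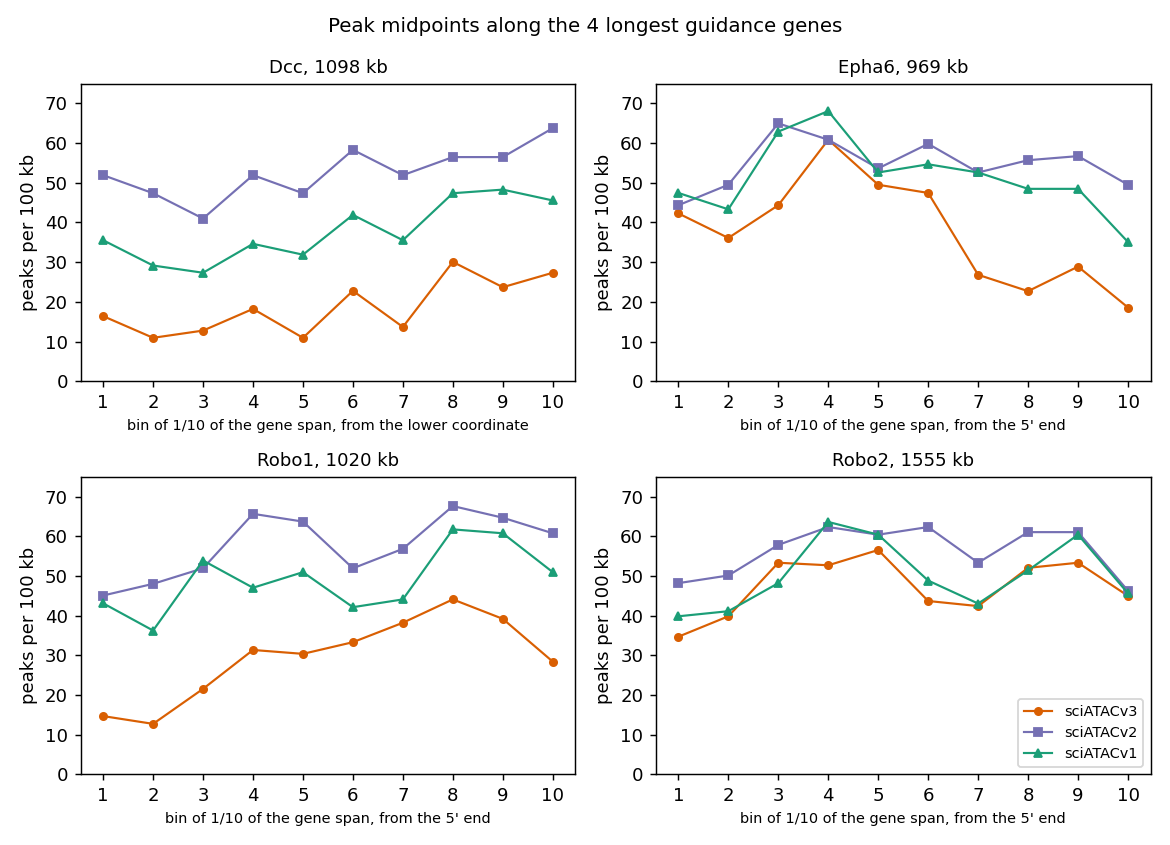
Peak midpoints per 100 kb (vertical axis) in each of 10 equal bins of the span (horizontal axis) of the 4 longest guidance genes, with 1 line per library; Epha6, Robo1 and Robo2 are counted from the 5′ end and Dcc, which has no listed strand, from the lower coordinate. The v3 lines of Dcc and Robo1 run below those of v2 and v1 in every bin. That of Robo1 is lowest in the bins nearest the 5′ end. The v3 line of Epha6 has its lowest values in the bins nearest the 3′ end, and the lines of Robo2 stay close. Values are not scaled to the library totals.

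In the netrin system, Ntn1, the attractant of commissural axons, had 36 peaks in v3, 96 in v2 and 47 in v1. Ntn4, a netrin of basement membranes, had 30 in v3, 39 in v2 and 58 in v1. Ntn1 was thus richest in v2 and Ntn4 in v1. Of the 96 regions of Ntn1, 51 held a v2 peak alone, and of the 53 regions of Ntn4, 16 held a v1 peak alone and 0 a v2 peak alone. The widest peaks of Ntn1 in v3 and v2, 2520 bp and 3075 bp, lay over the upper end of its span.

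Of the netrin receptors, Dcc had 207 peaks in v3, 581 in v2 and 417 in v1, and Unc5d, a repulsive netrin receptor, had 195, 300 and 284. Unc5b, with the fewest, had 24, 42 and 32. Unc5a, a repulsive receptor, was the densest guidance gene in v3, with 53.6 peaks per 100 kb in v3, 66.3 in v2 and 56.4 in v1, above 96.3%, 94.7% and 94.0% of protein-coding genes. Unc5c had 192 peaks in v3, 238 in v2 and 210 in v1. The netrin receptors therefore hold both the densest guidance gene of v3 and, apart from Ephb4, its sparsest, Dcc.

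To set the libraries against each other despite their different totals, each gene's peaks were divided by all peaks of the library, and the ratio of these shares was called past 1.5-fold in genes with at least 30 peaks over the 3 libraries. Of the 36 guidance genes, 30 met that minimum. In v3 over v2, 1 of the 30 was past 1.5-fold higher and 2 lower, where 11.9% of 9711 protein-coding genes were higher and 6.23% lower. In v3 over v1, 1 was higher and 2 lower, against 11.3% and 4.94%. In v2 over v1, 1 was higher and 1 lower, against 6.87% and 3.26%. Shares near the background are not a result about these genes, and the genes past the line are given for their own values.

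The median log2 share ratio of the 30 genes was 0.15 in v3 over v2, -0.06 in v3 over v1 and -0.21 in v2 over v1, against 0.19, 0.09 and -0.09 over all protein-coding genes tested. Of the 30, 21 had a ratio above 1 in v3 over v2, 11 in v3 over v1 and 6 in v2 over v1, where 6661, 5945 and 3767 of the 9711 protein-coding genes did. Together the windows held 3464 peaks in v3, 5388 in v2 and 4547 in v1, which is 0.677%, 0.633% and 0.730% of the peaks of each library, on 9.59 Mb or 0.364% of the chromosome spans. Relative to its total, the v1 list thus placed most peaks over guidance genes and the v2 list fewest. The low place of v2 was not particular to these genes. Over all protein-coding genes tested, the median log2 ratios of 0.19 in v3 over v2 and -0.09 in v2 over v1 also put v2 lowest. In v3 over v1 the signs differed, with 0.09 over all genes and -0.06 over the guidance genes. As a background, the windows of all protein-coding genes summed to 383131 peaks in v3, 571659 in v2 and 443786 in v1. Peaks in overlapping windows count more than once in these sums. Set against the library totals, v3 stood highest there and v2 lowest.

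Dcc, the attractive netrin-1 receptor on chromosome 18, position 71253613 to 72351228, was the gene past the line on the most peaks. Its share in v3 was 0.59 of that in v2 (0.50 to 0.70) and 0.60 of that in v1 (0.51 to 0.71), while v2 and v1 stood at 1.02 (0.90 to 1.16). Peaks covered 15.2% of the window of Dcc in v3, 38.4% in v2 and 24.8% in v1. Along the gene, the 10 bins of the span held 12 to 33 peaks each in v3, with a median of 19, against 45 to 70 with a median of 57 in v2 and 30 to 53 with a median of 39 in v1. These bin counts are not scaled to the library totals, and v2 has the most peaks of the 3 libraries. Of the 562 regions of Dcc, 181 held peaks of v2 and v1 but not v3, 177 a v2 peak alone and 149 peaks of all 3.

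Among the 374 protein-coding genes with at least 500 peaks over the 3 libraries, 5.35% were past 1.5-fold lower in v3 over v2 and 6.95% in v3 over v1. Of the 9 guidance genes of that depth, Epha5, Epha6, Ephb1, Slit3, Robo1, Robo2, Dcc, Unc5c and Unc5d, Dcc was the gene past the line, in both pairs. At the end of the span of Dcc with the higher coordinate the libraries did not part: v3 had a peak of 3124 bp there and v2 one of 2975 bp, the widest of the gene in each. The v3 library has the fewest and widest peaks of the 3, and the part of peak number and width in the lower share of Dcc was not tested; by covered length the ratio of v3 over v2 was 0.539, and with equal numbers of peaks drawn from each library Dcc stayed past 1.5-fold lower in v3 over both others.

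Ntn1 stood at 0.62 of its v2 share in v3 (0.41 to 0.92), at 0.93 in v3 over v1 (0.59 to 1.47) and at 1.49 in v2 over v1 (1.04 to 2.17), just under the line. The log2 ratio of Ntn1 in v2 over v1, 0.58, was past the line with gene spans alone at 0.62, with equal numbers of peaks at 0.62 and by covered length at 0.69. With flanks of 20 kb, the log2 ratio of Ntn1 in v3 over v2 was -0.55, against -0.68 with 5 kb, which is no longer past 1.5-fold. Ntn4 stood at 0.63 in v3 over v1 (0.39 to 0.99) and at 0.49 in v2 over v1 (0.32 to 0.75). With equal numbers of peaks from each library the log2 ratio of Ntn4 in v2 over v1 was -0.33, against -1.01, so that its call was lost. In v3 over v1, Ntn4's log2 ratio was -0.66, and -0.51 with equal numbers and -0.54 by covered length, also short of the line. Both netrin genes thus deviated, in different pairs of libraries.

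The genes past 1.5-fold higher were short and rested on few peaks. Epha2, an Eph receptor best known from epithelia, had 11 peaks in v3, 15 in v2 and 6 in v1, with ratios of 2.23 in v3 over v1 (0.76 to 7.34) and 1.83 in v2 over v1 (0.67 to 5.76). Ephb6 had 10 peaks in each library, which against the different totals gave 1.66 in v3 over v2 (0.62 to 4.45). All 3 intervals include 1. With flanks of 20 kb, peaks wider than 500 bp or covered length, the log2 ratio of Ephb6 was 0.38, 0.19 or 0.30, against 0.70, and no longer past the line.

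Larger counts gave narrower intervals. Epha5, a receptor of forebrain maps, had 190 peaks in v3, 211 in v2 and 200 in v1, and a ratio of 1.497 in v3 over v2 (1.22 to 1.83), just short of the line. Its log2 ratio was 0.75 with peaks wider than 500 bp, 0.66 with equal numbers of peaks and 0.75 by covered length, each past 1.5-fold. Robo2 stood at 1.40 in v3 over v2 (1.26 to 1.54), Epha7 at 1.35 (0.996 to 1.82) and Unc5c at 1.34 (1.10 to 1.63). Robo1 stood at 0.84 in v3 over v2 (0.73 to 0.97) and 0.73 in v3 over v1 (0.63 to 0.84). Ephb1 stood at 0.87 in v3 over v2, with an interval of 0.71 to 1.07 that includes 1.

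**Figure D4:**
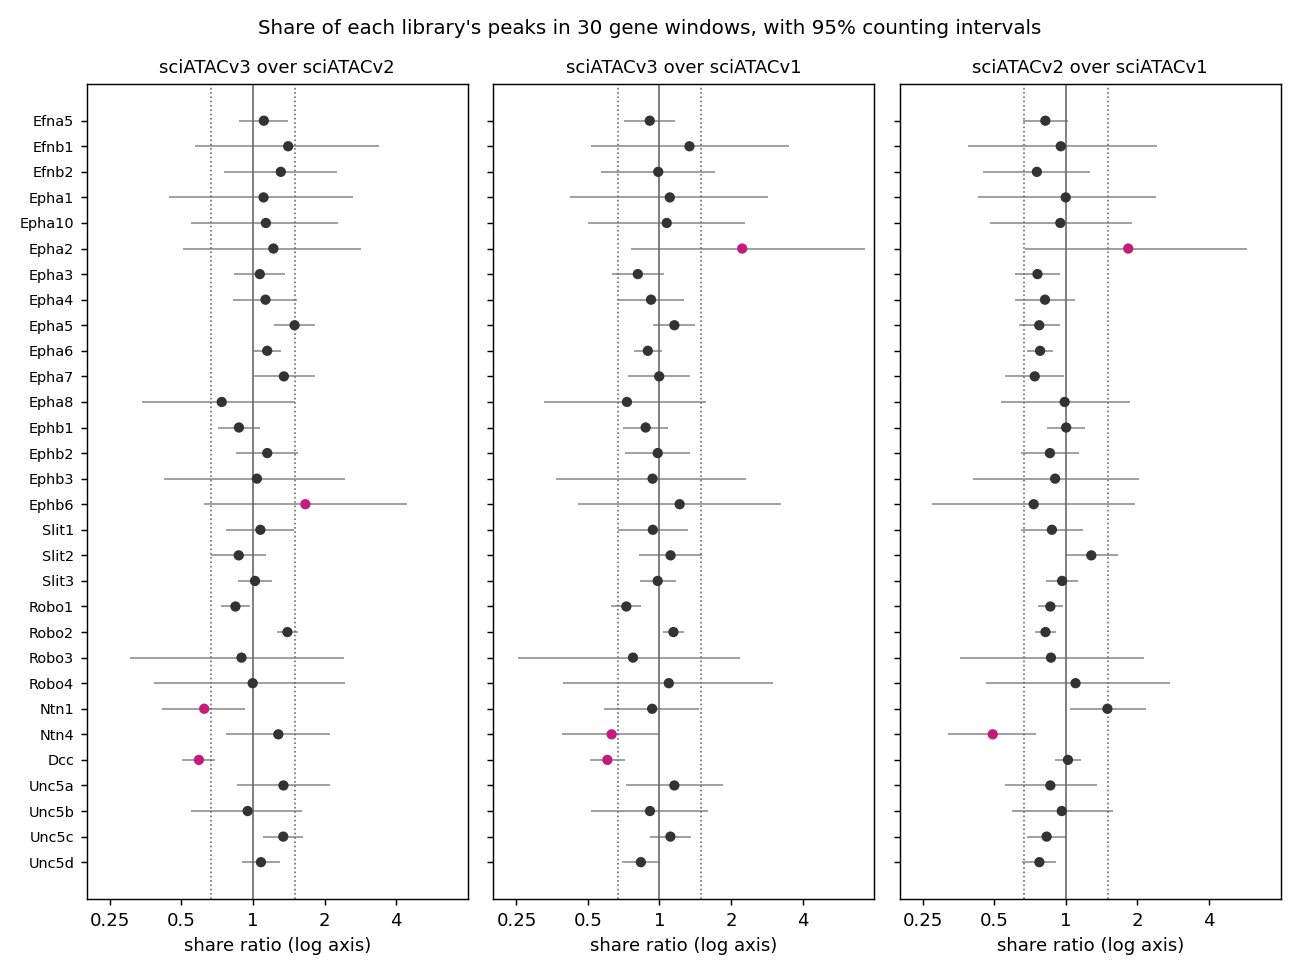
Ratio of the gene's share of all peaks between libraries (horizontal log axis) for the 30 guidance genes with at least 30 peaks, 1 panel per pair of libraries, with 95% counting intervals as lines and dotted lines at 1.5-fold. Points past the dotted lines are magenta; the interval of Dcc is short and lies below 1 in v3 over v2 and in v3 over v1, while those of Epha2 and Ephb6 are long and cross 1.

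Regions shared by the libraries were counted after merging overlapping peaks. The windows of the guidance genes held 4956 merged regions, of which 47.5% (46.1 to 48.9) held a peak of all 3 libraries and 26.5% a peak of 1 library, against 46.6% and 31.6% of the regions in all protein-coding windows. By gene, the share found in all 3 ran from 22.2% in Ephb4, 23.0% in Slit2, 23.5% in Epha2, 26.5% in Dcc and 28.1% in Ntn1 up to 73.1% in Efnb2, 73.8% in Epha7 and 83.3% in Efna3 and Efna4, whose windows hold few regions. Epha7, a receptor of cortical and retinal maps, had 62 of its 84 regions in all 3 libraries. Of the 4956 regions, 862 held a v2 peak alone, 291 a v3 peak alone and 159 a v1 peak alone.

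In genes with a listed start, the widest region shared by the 3 libraries lay mostly away from it. This measure is given without a share over all genes. In Epha5 it spanned 5511 bp, 115.9 kb from the start, with peaks summing to 5485 bp in v3, 2954 bp in v2 and 3040 bp in v1. In Robo1 it spanned 5141 bp, 197 kb from the listed start. In Unc5d it spanned 5409 bp at chr8:28709642-28715050, and its distance is unknown because that gene has no listed start. In Efna1, Efna2, Efna3, Ephb4, Slit2, Robo3 and Ntn4 it covered a listed start. Of the 31 genes with a listed start, 10 had their widest peak over it in v3, 7 in v2 and 12 in v1, or 32.3%, 22.6% and 38.7%, against 30.1%, 26.4% and 33.8% over all genes with a listed start.

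Genes that act beside these systems were taken from 2 further lists. The 30 guidance partners are cytoplasmic effectors, co-receptors and other proteins linked to Eph, Robo and Dcc signalling. They had medians of 44.2 peaks per 100 kb in v3, 60.0 in v2 and 51.4 in v1. Each lay above the medians of 34.5, 56.0 and 48.0 of the 36 guidance genes. Median spans were 146.6 kb for the partners and 87.0 kb for the guidance genes, and the part of length was not tested. In v3 over v2, 4 of the 30 were past 1.5-fold higher and 0 lower, in v3 over v1 3 and 1, and in v2 over v1 0 and 1. Dscam, a netrin-binding adhesion receptor, had the most peaks, with 265 in v3, 354 in v2 and 335 in v1. Tiam1, a Rac activator downstream of Eph receptors, was second by the sum over libraries, with 157, 225 and 199. Neo1, the neogenin gene and close relative of Dcc, had 86 peaks in v3, 87 in v2 and 44 in v1, a share ratio of 2.38 in v3 over v1 (1.63 to 3.50), where Dcc stood at 0.60. Srgap1, a GTPase-activating protein that binds Robo, had 66, 163 and 128 peaks and a ratio of 0.63 in v3 over v1 (0.46 to 0.85). Neo1 and Srgap1 were singled out after their values were seen.

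The 31 genes of the semaphorin system, a further guidance family with plexin and neuropilin receptors, had a median span of 40.5 kb. Their medians were 35.9 peaks per 100 kb in v3, 55.6 in v2 and 43.9 in v1. These lay near those of the 36 guidance genes in v3 and v2 and below them in v1. Of the 25 semaphorin-system genes with at least 30 peaks, 2 were past 1.5-fold higher and 1 lower in v3 over v2, 0 and 3 in v3 over v1, and 0 and 1 in v2 over v1. As a check of the tissue, all 15 markers of brain cell types had a peak at a gene end in each library. Of 8 markers of liver, muscle and lymphocytes, 5 had one in v3, 6 in v2 and 5 in v1. The share over all protein-coding genes was 80.6%, 84.8% and 81.0%, so a peak at a gene end separates tissues only in part. Of 10 brain markers with a listed start, 8, 8 and 7 had a peak over it in v3, v2 and v1. Of 7 such markers of other tissues, 2, 3 and 2 did, against 71.5%, 76.2% and 70.9% of all genes with a listed start.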

How the data were processed

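Tn5-accessible regions were measured in 3 whole-brain libraries, 1 per version. The authors deposited lists of peak positions (chromosome, start, end, name) without scores or read counts. ArchR, MACS2 and the build mm10 are named per the submitters' processing notes; the aligner, versions, thresholds and depth were not given in the sources used here. Every peak was at least 500 bp wide.

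The genes and lists were chosen with earlier results of these data known. Python 3.11.15, pandas 2.3.3 and scipy 1.17.1 were used. Peaks overlapping the gene span (GRCm38.p6) plus 5 kb by at least 1 bp were counted, and overlapping peaks were merged into regions. Share ratios carry exact conditional binomial 95% intervals, shares exact Clopper-Pearson intervals, and log2 ratios a pseudocount of 0.5 peaks scaled to library totals. No test between versions was possible with 1 library each, so past 1.5-fold describes size. The scripts were tested on simulated data. All 36 genes are named; full values go to the 2 genes with the most and the 1 with the fewest peaks per family, genes past 1.5-fold, and genes without a peak at an end. Starts came from the RefSeq promoter table, which matched 31 genes; Efnb3, Slit1, Ntn1, Dcc and Unc5d have no listed start there. Alternatives were gene spans alone, 20 kb flanks, peaks wider than 500 bp, equal numbers of peaks, midpoints, covered length, an equal pseudocount, no minimum, 500 bp at ends and 50% coverage of regions.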

Additional observations from a re-analysis of the deposited data

How the results depend on the processing

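Counts of guidance genes past 1.5-fold were small and moved by single genes. In v3 over v2, the 1 gene higher became 0 with gene spans alone, 20 kb flanks or midpoints and 2 with no minimum of peaks, and the 2 lower became 1 with 20 kb flanks and 4 with no minimum. Ephb6 kept log2 ratios of 0.69 with spans alone and 0.84 with midpoints, past 1.5-fold, and dropped out there through the minimum of 30 peaks. In v3 over v1, the 1 higher became 0 with spans alone, with peaks wider than 500 bp or with equal numbers of peaks and 3 with no minimum, and the 2 lower became 5, 1 and 4 with wider peaks, equal numbers and no minimum. Epha2 likewise kept log2 ratios of 1.05, 0.68 and 1.35 with spans alone, wider peaks and equal numbers, and 0.83 in v2 over v1 with wider peaks, and was left out by the minimum. In v2 over v1, the 1 higher became 0 with wider peaks and 2 with no minimum, and the 1 lower became 2, 3, 0 and 2 with 20 kb flanks, wider peaks, equal numbers and no minimum. The median log2 ratio of v3 over v1, -0.06, was -0.14 with spans alone and -0.17 with wider peaks. Wider peaks alone gave medians of 20.4, 27.6 and 22 peaks per 100 kb in v3, v2 and v1, and equal numbers gave 32.9 in v2 and 40.4 in v1, where fewer peaks enter by construction. Regions found in all 3 libraries, 47.5%, were 30.2% with equal numbers and 36.6% where each library had to cover 50% of the region. The cause of the other moves was not tested. Dcc stayed past 1.5-fold lower in v3 under each alternative run for it, at log2 ratios of -0.75 to -0.89 against v2 and -0.61 to -0.82 against v1. No paired analysis was possible because each version has 1 library. Unknown depth and unscored peaks mean that a missing peak cannot be told apart from one below the calling threshold.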
